A study of Arabidopsis thaliana with 24 samples.

Results

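The PLETHORA genes of Arabidopsis thaliana encode transcription factors with AP2 DNA-binding domains. The 6 genes described here are PLT1, PLT2, PLT3, BBM (also PLT4), PLT5 and PLT7, taken by locus identifier from the 32619 gene rows of the authors' tables, without regard to their levels. RNA was sequenced from protoplasts of Col-0 roots that had been sorted by the strength of a green fluorescent protein into 3 populations, called Proximal, Medial and Distal. The groups were the Proximal, Medial and Distal populations of the PUB25 line and of the SPT line, both from the root meristem with 3 libraries each, and of the TMO5 line, from meristematic xylem with 2 libraries each, 24 libraries in all. The labels name the lines PUB25, SPT and TMO5 but give neither promoter nor plant age, and they do not say which fluorescence each zone had or from which point the zones are named. All groups share the ecotype, protoplasting and sorting. The deposited value is 1 FPKM (fragments scaled to transcript length and sequencing depth) per gene, line and zone, so no level or difference below has an error, an n or a replicate check, and depth is unknown.

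In the Arabidopsis root, PLETHORA proteins are most abundant around the stem cell niche and decline shootward. High amounts are associated with stem cell identity, intermediate amounts with division, and low amounts with elongation and differentiation. Auxin induces the genes slowly, and root meristem growth factor (RGF) peptides widen the protein gradient. PLT1, PLT2, PLT3 and BBM act redundantly in the root meristem, while PLT3, PLT5 and PLT7 are known from lateral root outgrowth and from the arrangement of organs at the shoot.

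The genes lie on 3 chromosomes. RefSeq's annotation of TAIR10.1 places PLT1 (AT3G20840) on the plus strand of chromosome 3 from 7300444 to 7303693 and PLT2 (AT1G51190) on the plus strand of chromosome 1 from 18977176 to 18980618. The other members are on chromosome 5: PLT3 (AT5G10510, plus strand, 3315401 to 3320323), BBM (AT5G17430, minus strand, 5742393 to 5745748), PLT5 (AT5G57390, minus strand, 23252989 to 23256703) and PLT7 (AT5G65510, plus strand, 26185593 to 26189571). The longest coding transcript has 9 exons in every member except PLT3, which has 8, and the coding lengths run from 1497 bases in PLT7 to 1815 bases in PLT3. The 3′ end of PLT3 overlaps RBK1, a gene on the opposite strand, by 454 bases, and no other annotated gene overlaps a member.

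The coding sequences of the members were compared in pairs. PLT1 and PLT2 were identical at 80.4% of 1627 aligned bases and PLT3 and PLT7 at 79.5% of 1452, while the other pairs lay between 61.7% and 68.2%. The longest run of identical bases in any pair was 38, in PLT1 and PLT2, followed by 34 in PLT3 and PLT7. The stretch of 90 coding bases around the run of PLT1 and PLT2 is shown here because these are the members most alike, with capitals where both genes have the same base (68 of 90). It covers coding bases 1190 to 1279 of PLT1 and 1217 to 1306 of PLT2.
PLT1: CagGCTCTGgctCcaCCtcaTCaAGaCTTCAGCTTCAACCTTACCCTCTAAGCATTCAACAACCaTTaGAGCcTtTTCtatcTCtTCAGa
PLT2: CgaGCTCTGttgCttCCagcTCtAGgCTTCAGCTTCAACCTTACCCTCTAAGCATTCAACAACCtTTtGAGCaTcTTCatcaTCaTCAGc
The read length is not given in the sources used here, and whether reads were shared between these genes was not tested.

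PLT1, PLT2, PLT3 and PLT5 had lower levels in Distal than in Proximal cells in the PUB25 and SPT lines, and the 250 bases before their annotated starts are shown for that reason. They were searched on both strands for TGTCTC and TGTCGG, 6-letter sites bound by auxin response factors. Capitals mark a match, and CCGACA is TGTCGG read on the other strand.
PLT1, chr3:7300194-7300443, plus strand: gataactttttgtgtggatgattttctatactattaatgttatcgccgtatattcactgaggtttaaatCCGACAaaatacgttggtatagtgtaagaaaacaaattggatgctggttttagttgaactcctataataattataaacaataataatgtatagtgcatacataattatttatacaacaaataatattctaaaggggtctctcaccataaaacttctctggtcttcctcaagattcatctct
PLT2, chr1:18976926-18977175, plus strand: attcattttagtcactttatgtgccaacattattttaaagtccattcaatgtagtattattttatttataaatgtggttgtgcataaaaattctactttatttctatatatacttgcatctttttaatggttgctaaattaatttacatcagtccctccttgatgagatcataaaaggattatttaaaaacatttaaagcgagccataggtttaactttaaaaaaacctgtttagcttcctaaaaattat
PLT3, chr5:3315151-3315400, plus strand: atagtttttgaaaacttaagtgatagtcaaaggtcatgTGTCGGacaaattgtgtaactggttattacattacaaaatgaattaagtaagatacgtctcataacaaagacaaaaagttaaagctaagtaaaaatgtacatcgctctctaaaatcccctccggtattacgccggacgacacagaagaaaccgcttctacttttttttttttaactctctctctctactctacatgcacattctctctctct
PLT5, chr5:23256704-23256953, minus strand: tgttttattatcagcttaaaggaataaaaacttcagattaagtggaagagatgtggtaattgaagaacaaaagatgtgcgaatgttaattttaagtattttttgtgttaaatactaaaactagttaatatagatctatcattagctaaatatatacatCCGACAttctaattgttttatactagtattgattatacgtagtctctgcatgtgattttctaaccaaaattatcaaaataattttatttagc
TGTCGG stood in the window of PLT1, PLT3 and PLT5, with its outer base 181, 212 and 92 bases before the start, and in 4.16% of 27443 protein-coding windows of the same length. TGTCTC stood in those of BBM and PLT7 and in 10.9% of all windows. Either sequence was thus present before 5 of 6 members and before 14.7% of all genes. These windows end at the RefSeq starts. The deposited loci of PLT5, BBM and PLT7 start inside the RefSeq genes, at 23256491, 5745615 and 26185829 of chromosome 5. Which matches lie within 250 bases thus depends on the start used, and windows before the deposited starts were not searched. Neither sequence stood in the window of PLT2.

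PLT1 and BBM each stand in the zone files as a pair of records with the same start and end, and the authors' table carries only 1 of them. Records are numbered by chromosome and then in 2 runs of rising position, and 99.7% of 26616 genes with a single record lie in the run of their annotated strand. By that numbering PLT1 has a record with its own strand, carried by the tables of the PUB25 and SPT lines, and a record with the opposite strand, carried by the table of the TMO5 line. For BBM the record of the opposite strand is carried by the PUB25 table and that of its own strand by the SPT and TMO5 tables. The labels do not say whether the libraries keep strand, so reads of the opposite records may come from these genes. This was not tested. Levels of PLT1 and BBM are therefore compared across lines only within 1 record, here the one numbered with the strand of the gene.

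**Figure D1:**
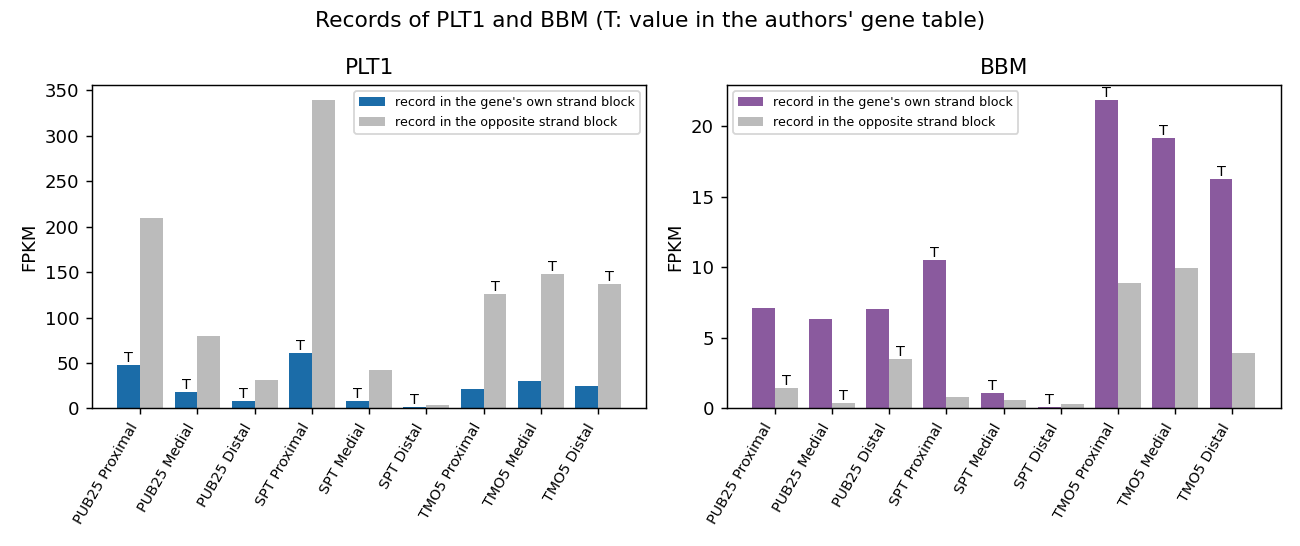
FPKM (vertical axes, linear) of both records of PLT1 and BBM in the 9 line and zone populations; coloured bars are the record numbered with the strand of the gene, grey bars the other, and T marks the value found in the authors' gene table. The grey PLT1 bars stand above the coloured ones in every population, from 3.76 against 1.41 FPKM in SPT Distal to 339 against 60.9 FPKM in SPT Proximal cells.

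The opposite-strand record of PLT1 held 210, 80.2 and 31.3 FPKM in PUB25 Proximal, Medial and Distal cells. In the SPT line it held 339, 42.1 and 3.76 FPKM, and in the TMO5 line 126, 148 and 137 FPKM. It was 2.66 to 6.0 times as high as the own-strand record and had the same order of zones within each line. For BBM the opposite record was the lower one in 8 of 9 populations, and the exception was SPT Distal, at 0.328 against 0.112 FPKM. The FPKM of a record depends on the length assembled for it, which the files do not give, so the ratio of the records is not a ratio of molecules.

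PLT3 was the most abundant member in all 9 populations by own-strand records. In PUB25 Proximal, Medial and Distal cells it stood at 97.9, 71.0 and 44.1 FPKM. The SPT values over the same zones were 134, 51.8 and 43.8 FPKM, and the TMO5 values 65.1, 74.0 and 66.6 FPKM. Its lowest value was 43.8 FPKM, whereas every other member dropped under 5 FPKM somewhere. Among rows whose title in the authors' table names a transcription factor, PLT3 ranked 138 of 756 in SPT Distal and 14 in SPT Proximal cells. The deposited PLT3 locus also spans RBK1, which had its own record and stood between 0.481 and 8.50 FPKM.

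PLT1, which with PLT2 maintains the stem cell niche, had 47.4, 18.3 and 7.94 FPKM in PUB25 Proximal, Medial and Distal cells by its own-strand record. In the SPT line it had 60.9, 8.05 and 1.41 FPKM. Proximal cells were thus the highest in the PUB25 and SPT lines. In the TMO5 line the same record had 21.0, 30.3 and 24.3 FPKM, so the xylem values lay below the Proximal and above the Distal values of the other lines. Its rank among the 756 titled transcription factors was 683 in SPT Distal and 54 in SPT Proximal cells.

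PLT2 had 39.7, 20.3 and 11.7 FPKM over the zones of the PUB25 line and 31.5, 8.07 and 3.20 FPKM over those of the SPT line. In the TMO5 line it had 4.91, 7.83 and 4.47 FPKM. By its own-strand record PLT1 was 0.441 times PLT2 in SPT Distal and 1.94 times PLT2 in SPT Proximal cells. These were the extremes of the PUB25 and SPT lines. In xylem cells the same record of PLT1 was 3.88 to 5.43 times PLT2 on the same FPKM scale. By its opposite record PLT1 stood above PLT2 in every population. The values of PLT1 and PLT2 were then 3.76 and 3.20 FPKM in SPT Distal and 126 and 4.91 FPKM in TMO5 Proximal cells. The ratio thus depends on the record.

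PLT5 had 18.6, 10.5 and 4.40 FPKM in PUB25 Proximal, Medial and Distal cells and 6.33, 5.44 and 2.85 FPKM in those of the SPT line. In the TMO5 line the order was the other way, at 1.47, 2.48 and 3.25 FPKM. The PUB25 line was the highest in each zone.

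BBM, best known for inducing somatic embryos when overexpressed, was highest in the xylem line. Over its Proximal, Medial and Distal zones the own-strand record had 21.9, 19.2 and 16.3 FPKM, and over those of the SPT line 10.5, 1.11 and 0.112 FPKM. In the PUB25 line this record had 7.14, 6.34 and 7.07 FPKM, close to level over the zones. The opposite record, carried by the authors' PUB25 table, had 1.47, 0.355 and 3.54 FPKM. PLT7 was listed at 0 FPKM in 5 of 9 populations and reached at most 0.0717 FPKM, in PUB25 Distal cells.

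**Figure D2:**
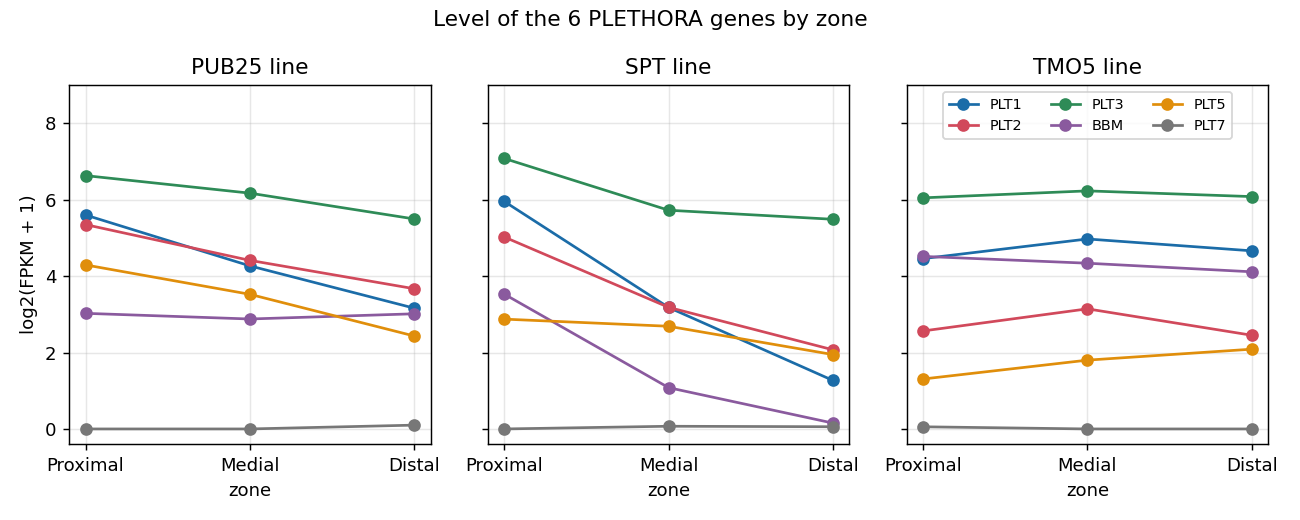
Level of the 6 genes as log2(FPKM + 1) (vertical axis) in the Proximal, Medial and Distal zone (horizontal axis) of each line, own-strand records, 1 deposited value per point. PLT1, PLT2, PLT3 and PLT5 slope down from Proximal to Distal in the PUB25 and SPT lines, while in the TMO5 line PLT1, PLT2 and PLT3 are highest in Medial cells and BBM stands near PLT1.

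Distal cells were compared with Proximal cells within each line on log2(FPKM + 1), beside the q value (adjusted p-value) of the authors' deposited table, and "rose" and "fell" are used only where that q value is under 0.05. The sizes given are differences in log2(FPKM + 1) here and for the gene lists further on, and they are smaller than the folds of that table where levels are low. Measured genes are those averaging 1 FPKM or more across a line's 3 zones, which leaves out PLT7 in every line and keeps 5 members. In the PUB25 line 4 of 5 members fell by the authors' deposited table, against 17.2% of all 16605 measured genes. PLT1 had 7.94 FPKM in Distal and 47.4 FPKM in Proximal cells, a log2 difference of -2.44. PLT5 followed at -1.86, PLT2 at -1.68 and PLT3 at -1.13, all at q = 0.000407 in the authors' deposited table. BBM, by the opposite record that table carries, had 3.54 FPKM in Distal and 1.47 FPKM in Proximal cells (q = 0.607 in the authors' deposited table). By its own-strand record the log2 difference was -0.01.

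In the SPT line 4 of 5 members also fell by the authors' deposited table, against 23.1% of 17365 measured genes. PLT1 had 1.41 FPKM in Distal and 60.9 FPKM in Proximal cells, a log2 difference of -4.68, lower than that of all but 0.225% of measured genes. PLT2 had 3.20 FPKM in Distal and 31.5 FPKM in Proximal cells (-2.95), and PLT3 had 43.8 and 134 FPKM in Distal and Proximal cells (-1.59). PLT5 differed by -0.93 (q = 0.0147 in the authors' deposited table). BBM, at 0.112 FPKM in Distal and 10.5 FPKM in Proximal cells (-3.37), had q = 0.245 in the authors' deposited table and was not called. The median over the 5 members was -2.95 in the SPT line and -1.68 in the PUB25 line, where the medians of all measured genes were 0.06 and -0.01.

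None of the 5 measured members was called between TMO5 Distal and TMO5 Proximal cells, where the authors' deposited table calls 0.266% of 15061 genes lower and 1.27% higher. PLT3 had 66.6 FPKM in Distal and 65.1 FPKM in Proximal cells, a log2 difference of 0.03. PLT1 differed by 0.12 by the opposite record in that table and by 0.20 by its own-strand record, with 24.3 FPKM in Distal and 21.0 FPKM in Proximal cells. BBM differed by -0.40 and PLT5 by 0.78. The smallest q value of any member over the 3 zone pairs of this line was 0.683 in the authors' deposited table, for PLT2 between Distal and Medial cells. This line had 2 libraries per zone, and the table gives no unadjusted p-value. A q value above the threshold does not show that the zones were alike, and whether the lines differ in these zone differences was not tested.

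**Figure D3:**
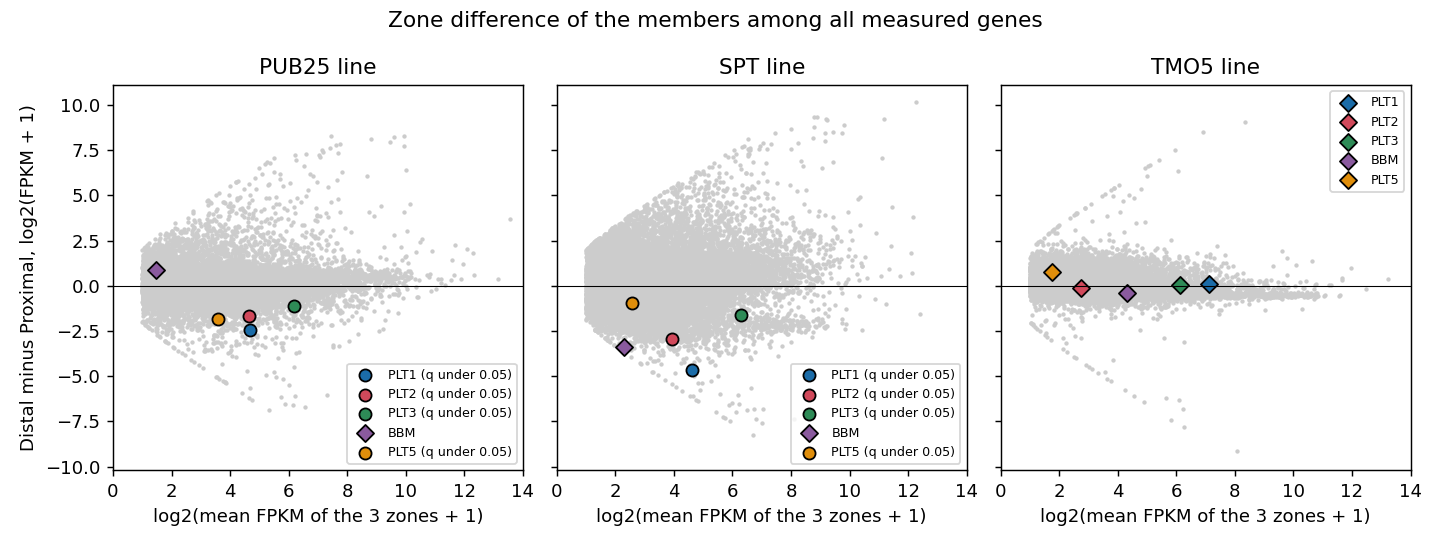
Distal minus Proximal in log2(FPKM + 1) (vertical axis) against the log2 of the mean FPKM over the zones plus 1 (horizontal axis) for all measured genes (grey) and the 5 measured members (coloured) in each line, values of the authors' table; circles have a q value under 0.05 there and diamonds do not. PLT1 lies lowest of the members in the PUB25 and SPT lines, at -2.44 and -4.68, and the members of the TMO5 line lie between -0.40 and 0.78.

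The steps through Medial cells divided the declines unequally, and since they share the Medial and Proximal or Distal values with the comparison above, they are not separate evidence. Between Medial and Proximal cells of the PUB25 line 4 of 5 members fell by the authors' deposited table (11.7% of measured genes fell), and between Distal and Medial cells 4 of 5 (11.4%). The same members, PLT1, PLT2, PLT3 and PLT5, fell in both steps. PLT1 differed by -1.33 in Medial over Proximal and by -1.11 in Distal over Medial cells, PLT2 by -0.94 and -0.74, PLT5 by -0.77 and -1.09, and PLT3 by -0.46 and -0.67. The PUB25 decline was thus spread over both steps in each of the 4.

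Between Medial and Proximal cells of the SPT line 4 of 5 members fell by the authors' deposited table (17.3% of measured genes fell and 17.4% rose), and between Distal and Medial cells 2 of 5 (10.3%). PLT1 differed by -2.77 and then by -1.91, and PLT2 by -1.84 and then by -1.11, called in both steps. PLT3 fell in the first, at -1.35, and differed by -0.24 in the second, not called there (q = 0.534 in the authors' deposited table). BBM fell in the first, with 1.11 FPKM in Medial and 10.5 FPKM in Proximal cells (q = 0.000359 in the authors' deposited table). PLT5 was not called in either step, at -0.19 and -0.74, with q values of 0.659 and 0.0512 in the authors' deposited table. In the TMO5 line 0 of 5 members were called in either step, against 0.186% of genes lower and 0.0266% higher in Medial than in Proximal cells and 0.00664% lower and 2.11% higher in Distal than in Medial cells.

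Members were also counted, without a test, by a difference of at least 1 in log2(FPKM + 1), called 2-fold here. In Distal over Proximal cells 4 of 5 members stood at least 2-fold lower in the PUB25 line (6.98% of measured genes, with 9.46% higher) and 4 of 5 in the SPT line (21.8%, with 24.3% higher), where BBM counts and PLT5 does not. PLT5 was past 2-fold in plain FPKM there, at 2.85 FPKM in SPT Distal and 6.33 FPKM in SPT Proximal cells, and with a pseudocount of 0.1 the SPT count was 5. In Medial over Proximal cells this was 1 of 5 in the PUB25 line (2.87%, with 7.19% higher) and 4 of 5 in the SPT line (12.4%, with 17.4% higher). In Distal over Medial cells it was 2 of 5 in both the PUB25 line (3.06%) and the SPT line (7.16%, with 8.64% higher). BBM stood 2-fold higher in Distal than in Medial cells of the PUB25 line (3.25% of genes), which rests on the opposite record. On this scale no member passed in either direction in the TMO5 line, although PLT5 was 2.20 times as high in TMO5 Distal as in TMO5 Proximal cells in plain FPKM. There, 1.2% of genes were lower and 7.83% higher in Distal over Proximal cells, 2.54% lower and 0.584% higher in Medial over Proximal cells, and 0.471% lower and 10.3% higher in Distal over Medial cells.

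The make-up of the family was compared as shares of its summed FPKM over own-strand records. The sum was 211, 126 and 75.3 FPKM in PUB25 Proximal, Medial and Distal cells and 243, 74.5 and 51.4 FPKM in those of the SPT line. It was 114, 134 and 115 FPKM in the TMO5 line. PLT3 held 46.5%, 56.2% and 58.5% of the sum in PUB25 Proximal, Medial and Distal cells. In the SPT line its share was 55.1%, 69.5% and 85.2% over the same zones, while that of PLT1 was 25.0%, 10.8% and 2.74%. PLT3 held between 55.3% and 58.0% in TMO5 cells. BBM held 14.2% to 19.1% of the sum in xylem populations and at most 9.39% elsewhere, and PLT2 held 3.89% to 5.85% in xylem populations and at least 6.23% elsewhere. With the records of the authors' TMO5 table, PLT1 would hold 57.4% to 60.2% there and PLT3 29.2% to 29.7%. The leading member of the xylem line thus depends on the record. BBM would then hold 7.15% to 9.97% in TMO5 cells, so the gap between its xylem share and the others also depends on the PLT1 record. Shares of the PUB25 and SPT lines with the opposite record of PLT1 were not computed. The opposite record of PLT1 also stood above PLT3 in PUB25 Proximal (210 and 97.9 FPKM), PUB25 Medial (80.2 and 71.0 FPKM) and SPT Proximal cells (339 and 134 FPKM).

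**Figure D4:**
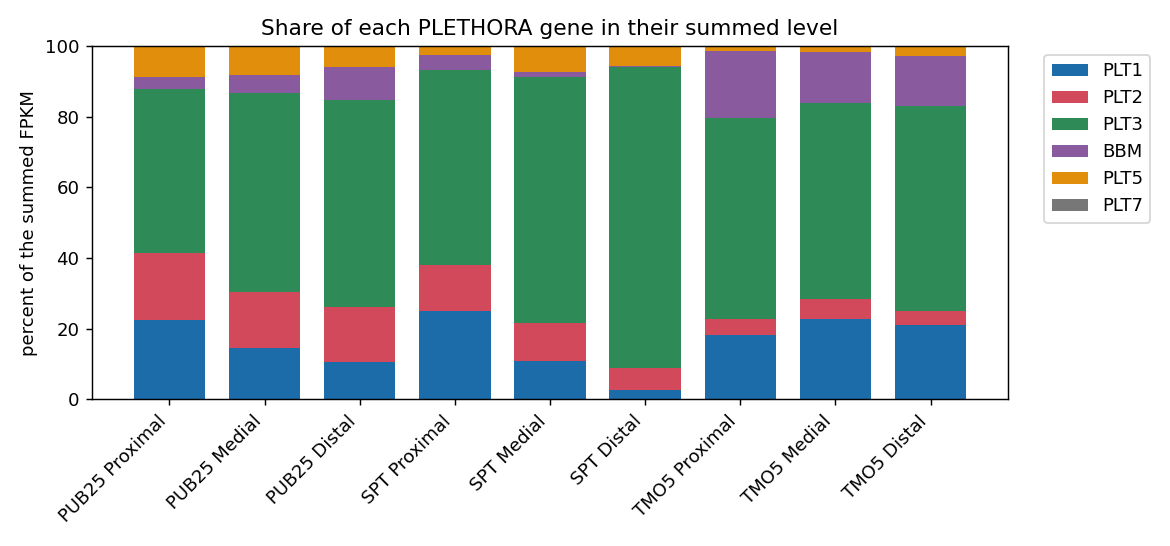
Share of each gene in the summed FPKM of the 6 genes (vertical axis, percent) in the 9 populations, own-strand records. PLT3 (green) takes the largest share everywhere and reaches 85.2% in SPT Distal cells, and BBM (purple) is widest in the TMO5 line, at 19.1% in Proximal cells.

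Levels were set side by side between lines without a test, since each line has its own table and may have been normalized separately. In Proximal cells the SPT and PUB25 values lay within 1.5-fold for PLT1 (60.9 FPKM in SPT and 47.4 in PUB25), PLT2 (31.5 and 39.7 FPKM) and PLT3 (134 and 97.9 FPKM). PLT5 was the exception, at 6.33 FPKM in SPT and 18.6 FPKM in PUB25 cells. In Distal cells PLT1 was at 1.41 FPKM in SPT and 7.94 FPKM in PUB25 cells, while PLT3 was at 43.8 FPKM in SPT and 44.1 FPKM in PUB25 cells. BBM was at 0.112 FPKM in SPT Distal and 7.07 FPKM in PUB25 Distal cells. TMO5 Proximal cells had less of PLT1, PLT2, PLT3 and PLT5 than SPT Proximal cells and more BBM, at 21.9 FPKM in TMO5 and 10.5 FPKM in SPT cells. In Medial cells PLT1, PLT3 and BBM were higher in TMO5 than in SPT cells, and PLT2 and PLT5 lower. TMO5 Distal cells had more of PLT1, PLT2, PLT3, PLT5 and BBM than SPT Distal cells. The gap there was wide for PLT1, at 24.3 and 1.41 FPKM, and small for PLT5, at 3.25 and 2.85 FPKM. In these sorted bulk samples, fewer cells with a transcript and less transcript per cell cannot be told apart.

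The genes most like each member were sought by Pearson's r over the 9 populations, after subtracting the mean of each line, among 11299 other genes averaging 5 FPKM or more. These are descriptions over points that share libraries within a line. ARF6, an auxin response factor gene, came first for PLT1 (r = 0.998, own-strand record), with 42.4, 24.1 and 17.7 FPKM in PUB25 Proximal, Medial and Distal cells and 45.4, 16.0 and 7.70 FPKM in those of the SPT line. For PLT2 the first was AT5G14680, titled an adenine nucleotide alpha hydrolase-like gene (r = 0.998). AT3G57160, titled a hypothetical protein, was first for PLT3 (r = 0.993), and EXO70B1, an exocyst subunit gene, was first for PLT5 (r = 0.992). Because r ignores level and size of change, a gene first in order can differ in both. AT3G57160 had 0.747, 2.22 and 1.11 FPKM in TMO5 Proximal, Medial and Distal cells, where PLT3 had 65.1, 74.0 and 66.6 FPKM. AT2G25355 was first for BBM by its own-strand record (r = 0.996) and HSI2 by the records of the authors' table (r = 0.988). That second r joins the opposite record of BBM in the PUB25 line with its own-strand record in the SPT and TMO5 lines. The next in order were ATKDSA2 and AT1G69910 for PLT1 (r = 0.993 and 0.992), AT1G69910 and AGF2 for PLT2 (both 0.993), AT4G32900 and CRCK3 for PLT3 (both 0.992), ZAR1 and MKP1 for PLT5 (0.990 and 0.982), and AT2G28790 and AT5G53045 for BBM by its own-strand record (both 0.996). AT1G69910, titled a protein kinase superfamily gene, is the one name shared by PLT1 and PLT2.

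Among the members themselves PLT2 stood 5th in the order for PLT1 (r = 0.989, own-strand record) and PLT3 stood 102nd (r = 0.962). PLT5 (r = 0.742) and BBM (r = 0.866) stood far lower in that order, at ranks 2710 and 1051. The lowest r between members was that of PLT5 and BBM (0.319).

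The other AP2 genes of the same group were mixed, and some were near 0 FPKM. AINTEGUMENTA (ANT), a regulator of organ growth in flowers, was listed at 0 FPKM in 7 of 9 populations and reached 0.0963 FPKM, and AIL1 reached 0.0397 FPKM. Of the 4 measured genes in this list 2 fell and 1 rose between PUB25 Distal and PUB25 Proximal cells by the authors' deposited table, and the same counts held in the SPT line (17.2% and 19.6% of all measured genes in the PUB25 line, 23.1% and 24.7% in the SPT line). AT2G41710, titled an AP2-like factor, fell in both, as PLT1, PLT2, PLT3 and PLT5 did. It had 12.9 FPKM in PUB25 Distal and 19.3 FPKM in PUB25 Proximal cells, and 1.39 FPKM in SPT Distal and 18.1 FPKM in SPT Proximal cells. WRI3 rose in both, by 0.96 in the PUB25 and 0.82 in the SPT line. WRI4 fell in the PUB25 line, with 5.86 FPKM in Distal and 14.2 FPKM in Proximal cells (q = 0.0197 in the authors' deposited table). It was not called in the SPT line (0.44). WRI1, which activates fatty acid synthesis genes in seeds, fell in the SPT line by q in the authors' deposited table, with a difference in log2(FPKM + 1) of -1.11, and was not called in the PUB25 line (0.33).

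RGF peptides are sulfated by TPST and signal through leucine-rich repeat receptor kinases. In the PUB25 line 5 of 11 genes of this list fell and 4 rose in Distal against Proximal cells by the authors' deposited table (17.2% and 19.6% of measured genes), and in the SPT line 5 fell and 2 rose (23.1% and 24.7%). TPST fell in both lines, with 6.05 FPKM in PUB25 Distal and 15.3 FPKM in PUB25 Proximal cells and 3.79 FPKM in SPT Distal and 11.3 FPKM in SPT Proximal cells. Among the ligand genes, RGF2 fell furthest, with 1.67 FPKM in PUB25 Distal and 182 FPKM in PUB25 Proximal cells, and 1.11 FPKM in SPT Distal and 87.4 FPKM in SPT Proximal cells. RGF3 also fell in both by q in the authors' deposited table, with differences in log2(FPKM + 1) of -5.16 in the PUB25 and -4.98 in the SPT line. TMO5 cells had little of either, since RGF2 reached at most 0.48 FPKM and RGF3 1.65 FPKM. RGF1 had 3.26 FPKM in PUB25 Distal and 7.39 FPKM in PUB25 Proximal cells, a fall by the authors' deposited table (q value of 0.0497). It had 0.707 FPKM in SPT Distal and 14.6 FPKM in SPT Proximal cells, not called (q = 0.368 in the authors' deposited table).

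The 5 receptor kinase genes of that list had mixed directions. AT1G34110 fell in the SPT line by q in the authors' deposited table, with a difference in log2(FPKM + 1) of -1.01, and was not called in the PUB25 line (-0.29). AT5G56040 rose in all 3 lines by the authors' deposited table, with 45 FPKM in PUB25 Distal and 1.26 FPKM in PUB25 Proximal cells, 29.0 and 3.56 FPKM in SPT Distal and Proximal cells, and 36.8 and 15.2 FPKM in those of the TMO5 line. It was the only gene of the list called in the TMO5 line, where 0.266% of measured genes fell and 1.27% rose in Distal over Proximal cells. AT4G26540 rose in the PUB25 and SPT lines by 2.59 and 2.05. AT5G48940 and AT3G24240 rose in the PUB25 line, by 0.42 and 0.71, and were not called in the SPT line (-0.49 and 0.25). AT2G12646, not one of the receptor kinase genes, fell in both lines, at -0.54 in the PUB25 and -3.64 in the SPT line. UBP13, a ubiquitin protease gene, was not called in any line, at -0.06, -0.29 and -0.19 in the PUB25, SPT and TMO5 lines.

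Auxin genes were mixed. Of 13 genes 7 fell and 3 rose between PUB25 Distal and PUB25 Proximal cells by the authors' deposited table, and 3 fell and 5 rose in the SPT line, while 0 of 11 were called in the TMO5 line. Over all measured genes 17.2% fell and 19.6% rose in the PUB25 line, 23.1% and 24.7% in the SPT line, and 0.266% and 1.27% in the TMO5 line. The efflux carrier gene PIN4 fell in the PUB25 and SPT lines and in every step of both. Its level was 32.5 FPKM in PUB25 Distal and 227 FPKM in PUB25 Proximal cells. MP, an auxin response factor gene that acts upstream of PLETHORA genes in the embryo, fell by 0.70 in the PUB25 and 1.27 in the SPT line. TAA1, of auxin synthesis, rose in both, at 64.0 FPKM in PUB25 Distal and 7.89 FPKM in PUB25 Proximal cells. TPL, a co-repressor gene of auxin responses, was not called in any line.

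**Figure D5:**
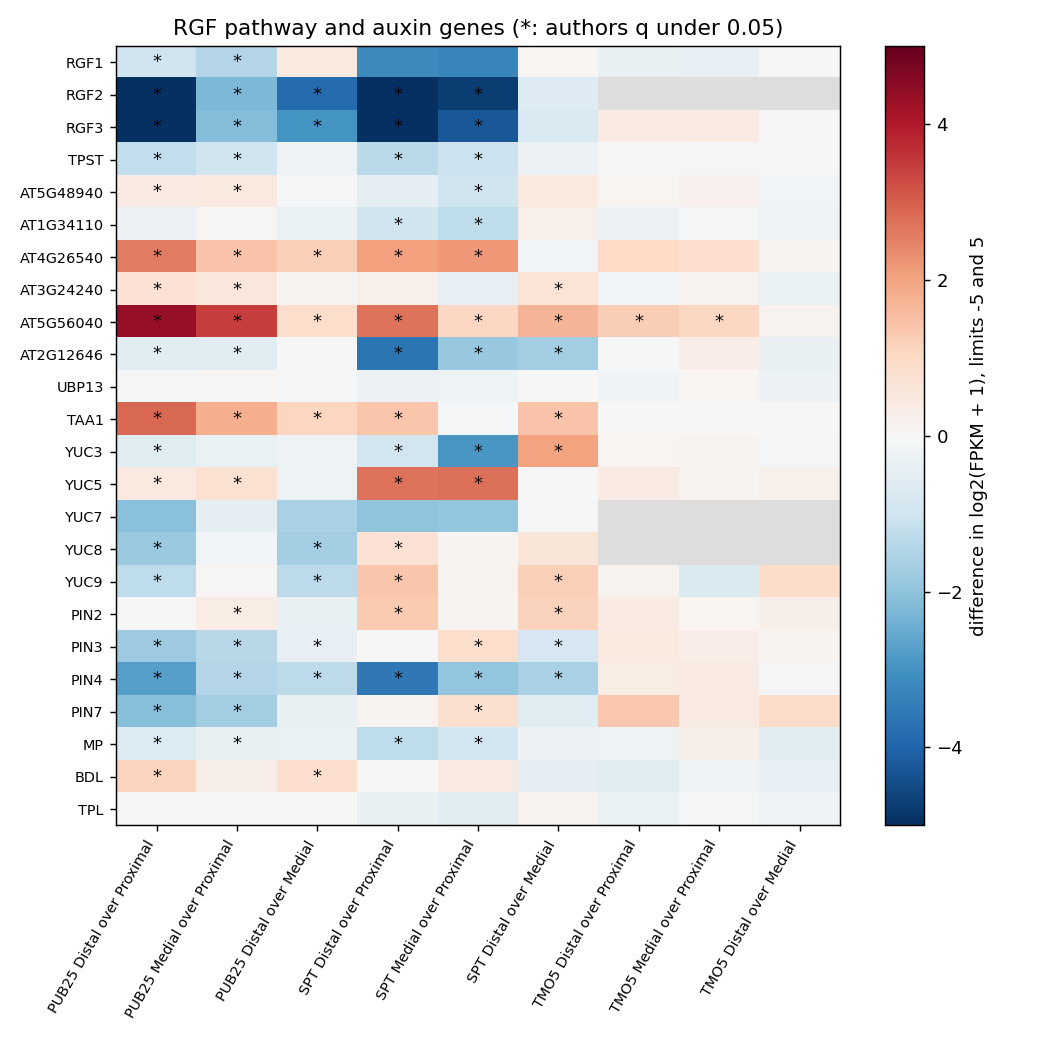
Differences in log2(FPKM + 1) between zones for the RGF pathway and auxin genes (rows) in each line and zone pair (columns), red where the zone named first is higher, limited to the range from -5 to 5; stars mark a q value under 0.05 in the authors' table and grey cells genes under the minimum level. RGF2, RGF3, PIN4 and TPST are starred as lower in the Distal over Proximal columns of the PUB25 and SPT lines, and AT5G56040 as higher in all 3 lines.

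Partners in the niche were mixed. SHR, a mobile factor of ground tissue patterning, had 21.5 FPKM in PUB25 Distal and 2.58 FPKM in PUB25 Proximal cells, and 6.73 FPKM in SPT Distal and 16.7 FPKM in SPT Proximal cells, so it rose in the PUB25 and fell in the SPT line by the authors' deposited table. SCR, which SHR activates, fell by 1.55 in the SPT line and was not called in the PUB25 line (0.38). The retinoblastoma-related gene RBR1 fell in both, by 0.68 and 1.31. In the PUB25 line 1 of 4 measured genes of this list fell and 2 rose, and in the SPT line 3 of 5 fell and 1, WOX5, rose, by the authors' deposited table. The shares of all measured genes were 17.2% lower and 19.6% higher in the PUB25 line and 23.1% lower and 24.7% higher in the SPT line. TCP21 and ADA2b lie in rows that join several genes and were not measured.

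Among chromatin genes, the histone acetyltransferase gene GCN5, which sustains PLETHORA expression, had 6.11 FPKM in PUB25 Distal and 6.81 FPKM in PUB25 Proximal cells, without a call. It fell by 0.75 in the SPT line. The remodeller gene PKL fell in both lines, by 0.35 and 0.69. In this list 1 and 2 of the 2 measured genes fell in the PUB25 and SPT lines, against 17.2% and 23.1% of all measured genes. The cytokinin response regulators ARR1 and ARR12, which promote differentiation in the root, rose by 0.84 and 0.92 in the SPT line. They were 2 of the 3 genes of their list, against 24.7% of measured genes that rose there. Neither was called in the PUB25 line, at 0.22 and 0.10. SHY2, the third gene of that list, was not called in any line. None of these niche, chromatin and cytokinin genes was called between TMO5 Distal and TMO5 Proximal cells, where 0.266% of measured genes fell and 1.27% rose.

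Markers of other cell types moved with the zones. The summed level (FPKM) of 6 xylem genes was 10.8, 16.6 and 50.4 in PUB25 Proximal, Medial and Distal cells, 35.0, 43.0 and 19.5 in those of the SPT line and 940, 722 and 551 in those of the TMO5 line, the labelled xylem population. Most of the TMO5-line sum and its decline came from the genes TMO5 (481, 354 and 240 FPKM) and AHP6 (293, 133 and 100 FPKM). There VND7 was highest in Distal cells (4.53, 1.12 and 17.3 FPKM). ACL5 (106, 167 and 145 FPKM) and ATHB8 (55.4, 66.9 and 48.7 FPKM) were highest in Medial cells. The phloem marker APL was listed at 0 FPKM in all TMO5 zones, and the root cap genes SMB and FEZ reached at most 0.454 FPKM there. BRN2, the other root cap gene, had 17.3, 15.5 and 8.61 FPKM in TMO5 Proximal, Medial and Distal cells. Endodermis genes summed to 4.57, 128 and 244 FPKM over the zones of the SPT line and phloem genes to 6.98, 54.3 and 65.8 FPKM, while in the PUB25 line these sums reached at most 14.4 and 2.11 FPKM. Root cap genes summed to 265, 314 and 279 FPKM in the PUB25 line and 118, 90.7 and 310 FPKM in the SPT line, and epidermis genes to between 91.9 and 170 FPKM in both. Among the root cap genes FEZ had 1.93 FPKM in PUB25 Distal and 90.3 FPKM in PUB25 Proximal cells, and 1.43 FPKM in SPT Distal and 45.1 FPKM in SPT Proximal cells, and it fell in both lines by the authors' deposited table. BRN2 rose in both, with 229 FPKM in PUB25 Distal and 45.3 FPKM in PUB25 Proximal cells, and 233 FPKM in SPT Distal and 5.33 FPKM in SPT Proximal cells. SMB fell in the PUB25 line, at 47.3 FPKM in Distal and 129 FPKM in Proximal cells, and was not called in the SPT line, at 75.5 FPKM in Distal and 67.8 FPKM in Proximal cells. In the TMO5 line epidermis genes summed to 104 to 153 FPKM, nearly all of it CPC, and root cap, endodermis and phloem genes to at most 17.6, 10.2 and 1.32 FPKM. The sums hold AHP6, BRN2 and CPC, which like PLT1 have a pair of records. The part of these cell types in the PLETHORA differences was not tested.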

How the data were processed

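Per the labels, a QIAGEN RNeasy micro column gave the RNA and NuGEN Ovation reagents the libraries. The submitters' processing notes name TAIR10, TopHat, Bowtie, Cuffdiff and Cufflinks, with no version, role or order. The authors deposited 1 FPKM per gene and zone, without saying how replicate libraries entered it, and a table per line with log2 folds and q values (adjusted p-values). The planned limma test could not be run on 1 value per zone, so values are given without a test. Here FPKM were transformed to log2(FPKM + 1), with a minimum mean of 1 FPKM over the zones of a line. The members and gene lists were chosen with earlier results of these data known, and list genes named beyond the members were those needed to describe a list. A gene of the auxin list is not reported here. Records of PLT1 and BBM were compared after their values were seen. Files and RefSeq TAIR10.1 shared the start or the end of 91.3% of 596 tRNA genes, and both the start and the end of 75.8%. The code was tested on simulated data. Alternatives were another pseudocount, other minimum levels, quantile normalization, median centring, summed or own-strand records and the authors' q value. Tools were numpy 2.4.6, pandas 2.3.3 and biopython 1.88. Depth per library is unknown, so no interval or detection limit is given.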

Additional observations from a re-analysis of the deposited data

Results flagged for a closer look

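Distal over Proximal differences past 1.5-fold in opposite directions in 2 lines were found for BBM and PLT5, from 1 value per line and zone, and the contrast between lines was not tested. For BBM the PUB25 difference minus the SPT difference was 4.25 on the log2 scale by the authors' table, which carries different records of BBM in these lines. By the own-strand record the PUB25 difference was -0.01 and no longer positive. For PLT5 the PUB25 difference minus the TMO5 difference was -2.64, and the SPT difference minus the TMO5 difference was -1.71. The TMO5 value rests on 3.25 FPKM in Distal and 1.47 FPKM in Proximal cells (q = 0.807 in the authors' deposited table).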

How the results depend on the processing

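No paired analysis was possible because the files hold 1 value per line and zone, and for the same reason no library could be left out. Under the alternatives 134 counts of members at least 2-fold apart stayed within 1.5 times the reported count and 10 did not, and 295 single differences kept their side of 2-fold while 8 did not. Part of this was fixed in advance. Dropping the filter on low values and a minimum mean of 5 FPKM leave each difference as it is, and they gave 45 and 33 of the 295. Dropping the filter can add only PLT7, at 0.0717 FPKM or less, to the counts, so its 18 counts were fixed as well. Most of the reported counts were 0, among them all of the TMO5 line, and such a count stayed only by remaining at 0. The 134 therefore say little about how stable the counts above 0 are. The record settings can alter only PLT1 and BBM, in the differences and in the counts. In the PUB25 line the 1 member 2-fold lower in Medial than in Proximal cells became 2 with a pseudocount of 0.1, 2 after quantile normalization and 4 by q in the authors' deposited table. The 2 lower in Distal than in Medial cells became 4 by that q. The 1 higher there, BBM, became 0 with a minimum mean of 5 FPKM, with summed records, with the own-strand record (added after seeing the data) and by the q value. With a pseudocount of 0.1 the 0 members higher in Distal than in Proximal cells became 1 in the PUB25 line (BBM) and 1 in the TMO5 line (PLT5). The values of BBM and PLT5 are the low ones, and depth behind them is unknown. Scaling moved the median difference of all measured genes most in the TMO5 line, from -0.04 to -0.16 in Distal over Medial cells with median centring.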

Other observations

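The difference in record found for PLT1 and BBM was frequent in the authors' tables. In the zone files 606 gene names had several records, all with the same start and end within a name. The carried record was identified in every line for 593 of these names (values equal within a relative tolerance of 0.0001), and 356 of them carried different records in different lines. PLT1 and BBM were the PLETHORA genes among them.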
